A study of Mus musculus with 2 samples.

Results

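The core planar cell polarity genes are a set of 10 genes that encode the membrane and cytoplasmic proteins of a single signalling system: Celsr1, Celsr2, Celsr3, Fzd3, Fzd6, Vangl1, Vangl2, Prickle1, Prickle2 and Prickle3. They were taken by symbol from a feature table of 32285 genes, and all 10 were found in it. The study compared whole uteri of female mice aged 6 months, a control group labelled Prickle1 f/f and a group labelled Prickle1 f/f Ltf-cre, called cKO here. Both groups carried floxed alleles of Prickle1, and the cKO group also carried Cre recombinase from Ltf (named Ltf-iCre in the study's design), the lactoferrin gene, active in epithelial cells of the adult uterus. A group consisted of 1 droplet library that pooled 3 mice. A genotype entry in the labels calls both samples C57BL/6J wild-type, which differs from their titles, and the titles were used.

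Planar cell polarity aligns cells within the plane of a tissue. The cadherins of the Celsr family join neighbouring cells, and on either side of that contact a Frizzled receptor complex in 1 cell faces a Vangl and Prickle complex in the other. In the uterus the system is known for the arrangement of the luminal and glandular epithelium, and Wnt5a made by stromal cells is among the ligands that act on it.

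The control library held 45035801 unique molecular identifiers (UMIs, each 1 captured transcript end) and the cKO library 57145553. A barcode counted as a cell when it had 500 genes or more and mitochondrial UMIs made up no more than 20%: 3653 in control with a median of 4650 UMIs and 4950 in cKO with a median of 5944, and 5 of these barcodes occurred in both libraries. A cell was placed in a class by at least 1 UMI of that class's gate gene and none of any other: Epcam (epithelial), Pdgfra (stromal), Actg2 (muscle), C1qa (macrophage), Flt3 (dendritic), Cd3e or Ncr1 (lymphoid) and Msln (mesothelial). Levels are the UMIs of a gene summed over a class and scaled to a class total of 1000000 (CPM). With 1 library per group there is no replicate check and no test. Genotype, animals and library preparation cannot be told apart, and every interval is a 95% interval that covers counting error only.

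The epithelial gate was not equally pure in both libraries. It held 943 cells in control and 100 in cKO, and 8 of the control cells against 33 of the cKO cells had no UMI of 7 further epithelial markers. B or plasma cell markers, 3 of 3 detected in both, summed to 1.13 CPM in control and 1683 CPM in cKO, where Jchain had 4910 UMIs in 7 cells. Lymphoid markers summed to 13.4 CPM (6 of 6 detected) and 361 CPM (5 of 6, Cd3d at 0). Lymphatic endothelial markers summed to 2.33 CPM (4 of 4) and 103 CPM (3 of 4, Flt4 at 0). A narrower gate that also asked for a UMI of Krt8 or Krt18, keratins of simple epithelium, was therefore added after these values were seen. It kept 919 control cells with 99.2% of the gate's UMIs and 55 cKO cells with 84.2%. Within it B or plasma markers were at 0.421 and 2.02 CPM, lymphoid markers at 4.52 and 10.5 CPM, and lymphatic markers at 2.17 and 1.62 CPM, with Prox1, Flt4 and Mmrn1 at 0 in cKO. Muscle markers stayed apart, at 26.3 and 631 CPM, with Myh11 at 0 in cKO.

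Promoter sequences are shown for the gene under deletion at both of its listed start sites, for the member most abundant in stroma and muscle relative to epithelium (Prickle2), and for a pair of members with most of their control UMIs in epithelial-gated cells (Vangl2, lower in the cKO sum, and Celsr2, near equal in the sums). They run from 250 bases before to 50 bases after the start site, 5′ to 3′ on the gene's strand, and come from RefSeq on GRCm38.p6, which had entries for 6 of the 10 genes. Capitals mark GGGCGG, the GC box, and CAGGTG, an E-box, each on either strand and counted with overlaps.
Prickle1 start site 1, chr15:93595853-93596152, strand -: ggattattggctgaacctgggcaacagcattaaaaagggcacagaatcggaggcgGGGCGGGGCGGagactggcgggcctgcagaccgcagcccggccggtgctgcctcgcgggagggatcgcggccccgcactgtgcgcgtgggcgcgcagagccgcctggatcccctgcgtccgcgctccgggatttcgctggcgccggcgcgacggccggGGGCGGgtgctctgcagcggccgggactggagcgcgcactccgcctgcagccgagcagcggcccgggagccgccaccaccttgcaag
Prickle1 start site 2, chr15:93519471-93519770, strand -: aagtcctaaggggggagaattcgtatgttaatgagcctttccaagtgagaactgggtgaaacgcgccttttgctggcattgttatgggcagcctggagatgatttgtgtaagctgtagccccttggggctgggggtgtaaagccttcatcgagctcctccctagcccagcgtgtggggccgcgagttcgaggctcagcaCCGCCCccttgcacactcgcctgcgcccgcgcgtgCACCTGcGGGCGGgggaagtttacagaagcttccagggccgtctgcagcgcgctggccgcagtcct
Prickle2 start site 1, chr6:92706135-92706434, strand -: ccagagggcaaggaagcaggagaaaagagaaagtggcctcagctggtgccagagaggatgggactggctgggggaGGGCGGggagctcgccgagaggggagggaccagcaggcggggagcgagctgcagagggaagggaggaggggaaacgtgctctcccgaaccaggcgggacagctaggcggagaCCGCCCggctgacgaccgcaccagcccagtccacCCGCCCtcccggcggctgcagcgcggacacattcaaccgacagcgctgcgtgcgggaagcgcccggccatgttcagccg
Vangl2, chr1:172027246-172027545, strand -: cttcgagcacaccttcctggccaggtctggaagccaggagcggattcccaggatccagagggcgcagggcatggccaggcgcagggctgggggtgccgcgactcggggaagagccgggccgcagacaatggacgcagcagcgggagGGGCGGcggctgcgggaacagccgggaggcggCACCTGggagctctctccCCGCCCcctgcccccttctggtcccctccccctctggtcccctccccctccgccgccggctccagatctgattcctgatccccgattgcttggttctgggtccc
Celsr2, chr3:108415530-108415829, strand -: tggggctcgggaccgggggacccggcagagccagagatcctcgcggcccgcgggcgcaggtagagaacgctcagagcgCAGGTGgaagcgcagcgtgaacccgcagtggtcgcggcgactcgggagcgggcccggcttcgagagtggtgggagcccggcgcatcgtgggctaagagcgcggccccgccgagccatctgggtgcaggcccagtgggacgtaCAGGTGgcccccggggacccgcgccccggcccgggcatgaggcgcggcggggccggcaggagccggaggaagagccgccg
A GC box lay in 35.7% and the E-box in 20.2% of all 32851 promoters of this length in the table. Prickle1 start site 1 had 3 GC boxes, no E-box and 39 CpG dinucleotides, against a median of 7 CpG over the table. Start site 2 had 2 GC boxes, 1 E-box and 20 CpG. Prickle2 had 3 GC boxes and 25 CpG, Vangl2 had 2 GC boxes, 1 E-box and 21 CpG, and Celsr2 had 2 E-boxes, no GC box and 40 CpG. All 5 windows shown were above that median, but Prickle2 has 3 further start sites in the table, not shown, with 4, 5 and 7 CpG. These matches describe the letters of the windows only, and the libraries, read from the 3-prime end, hold no record of the start site used.

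Prickle1 (ENSMUSG00000036158; GRCm38 chromosome 15, 93499114 to 93595891), the deleted gene, encodes a cytoplasmic protein that binds Vangl at the membrane. Coordinates of the other members below are of the same build. In epithelial-gated cells it had 14 UMIs in control (0.836 CPM, 0.457 to 1.40) and 4 in cKO (1.36 CPM, 0.371 to 3.48). The narrower gate held 14 and 3 of these UMIs. These levels lay near or under the cell-free profile, made from barcodes with 1 to 100 UMIs, which had 1.55 CPM (0.423 to 3.97) in control and 5.69 CPM (3.03 to 9.73) in cKO. Other classes' markers limited cell-free RNA to 2.15% and 4.32% of the epithelial UMIs, and subtracting that much left Prickle1 at 0.820 and 1.17 CPM. With cells thinned to 1000 UMIs, 0 of 936 control cells had a Prickle1 UMI, which allows a share of up to 0.321%, and 1 of 100 cKO cells did (1%, exact binomial interval 0.0253 to 5.45%). The unthinned shares were 1.27% at a median of 6177 UMIs per cell and 4% at 11053. Macrophages, which should lack the gene, gave 0 of 225 and 0 of 108 after thinning, at median depths of 7930.5 and 7997 UMIs. These zeros allow up to 1.33% and 2.78%, so this measure cannot tell macrophages from epithelial cells. With 14 and 4 UMIs, loss of the epithelial transcript was not detectable at this depth. A 3-prime count also does not show the removal of an internal exon, so this gene checks neither library's label.

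Most Prickle1 UMIs lay in other cells, with 14 of 100 in control and 4 of 436 in cKO inside the epithelial gate. In control the order of levels was mesothelial (13.3 CPM), muscle (12.3), lymphoid (5.39), stromal (3.85), dendritic (2.04) and epithelial (0.836), with 0 in macrophages, and the intervals of all neighbours in this order overlapped. In cKO it was lymphoid (31.0 CPM), mesothelial (14.3), muscle (13.3), stromal (9.11), dendritic (3.64), epithelial (1.36) and macrophage (1.04), and the stromal interval did not overlap the dendritic one. The mesothelial values rest on 3 and 4 UMIs. In that gate all 5 mesothelial markers were detected, at 1389 CPM together in control and 2433 in cKO. The 6 stromal markers, all detected too, summed to 11535 and 15369 CPM there, and to 11959 and 13445 CPM in the stromal gate itself. The 4 lymphatic endothelial markers were at 0 in mesothelial-gated control cells and at 492 CPM in cKO. Their part in the mesothelial level was not tested.

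**Figure D1:**
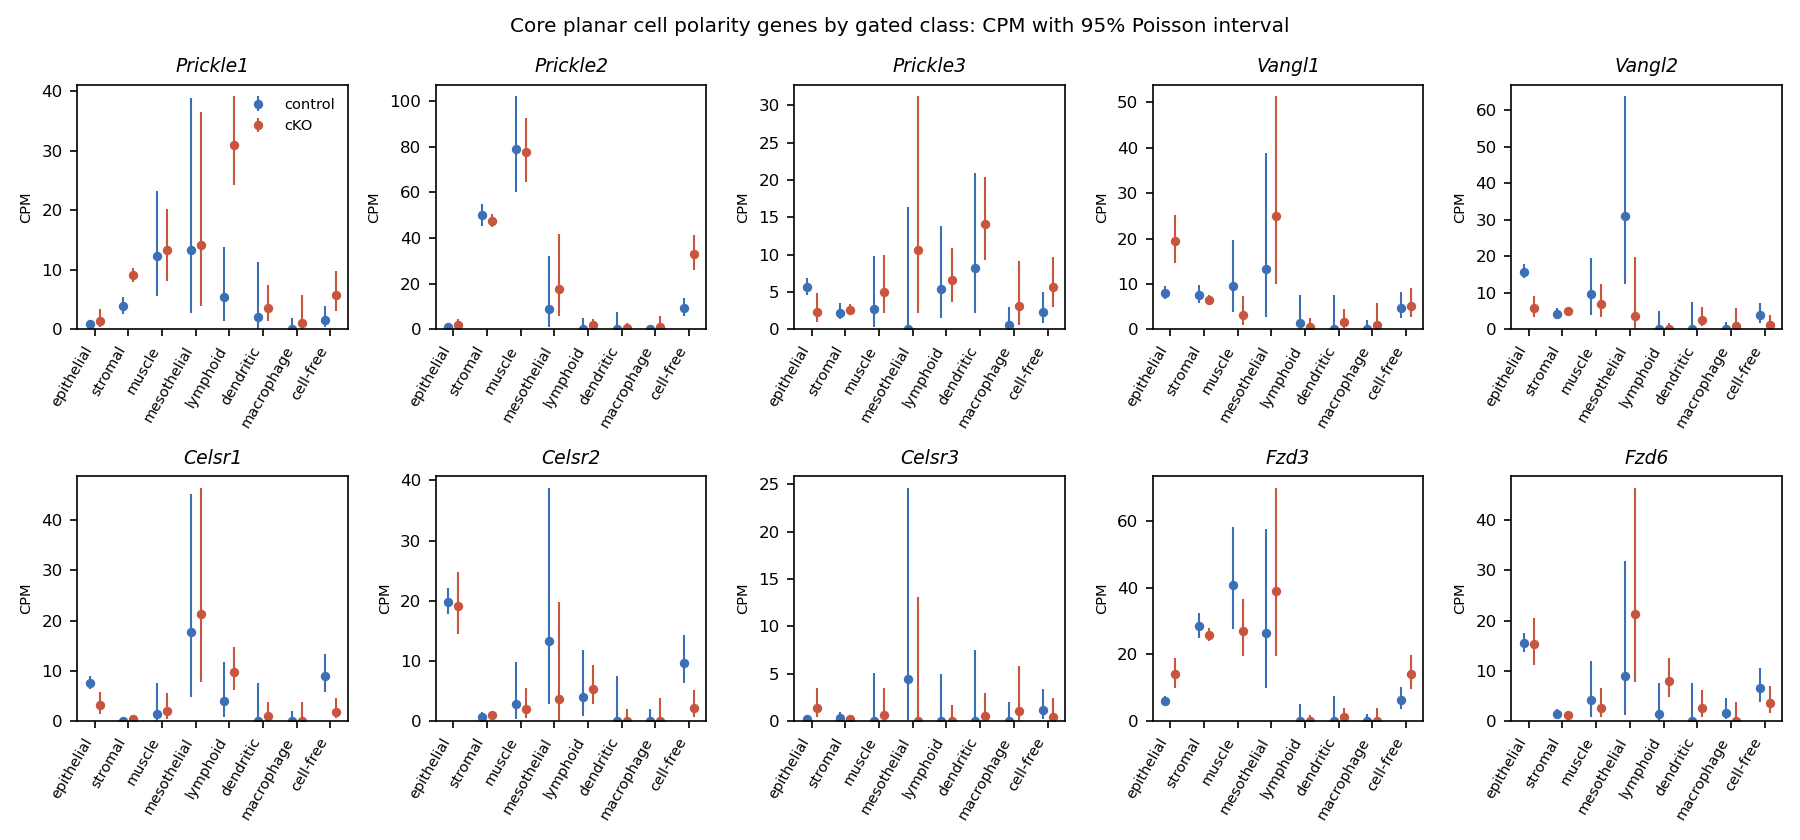
Level of each core planar cell polarity gene in the 7 gated classes and the cell-free profile, in CPM on the vertical axis, for the control library (blue) and the cKO library (red); bars are exact Poisson 95% intervals. Celsr2 stands highest in epithelial cells of both libraries, Prickle2 in muscle and then stroma, and Prickle1 in cKO lymphoid cells at 31.0 CPM.

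Some members were higher in epithelium and others in stroma. Of 9 members with at least 20 UMIs in both profiles together, 5 were at least 2-fold higher in epithelial-gated than in stromal-gated control cells, where 24.3% of 13592 genes were, and 3 were at least 2-fold lower, where 32.8% of genes were. In cKO, 4 of 9 were higher (23.6% of 13652 genes) and 2 lower (20%). The shares of members that were lower, 3 of 9 and 2 of 9, were near those of all genes. Beside a median log2 ratio of -0.32 over all genes in control, the median of the 9 members was 1.34. In cKO the medians were 0.23 for the members and -0.01 for all genes.

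Among the cadherins, Celsr2 (ENSMUSG00000068740; chromosome 3, 108390851 to 108415552) had 332 UMIs in control epithelial cells (19.8 CPM, 17.7 to 22.1) and 5 in stromal cells (0.621 CPM, 0.202 to 1.45). It was 31.9-fold higher in epithelium (13.5 to 98.9). In cKO the levels were 19.0 and 0.946 CPM, 20.1-fold apart (12.3 to 34.0), so that epithelial and stromal intervals were far from overlapping in each library. Celsr1 (ENSMUSG00000016028; chromosome 15, 85898929 to 86033777) had 127 UMIs in control epithelial cells (7.58 CPM) and 0 in the 620 control stromal cells. With the stromal sum set to 3 counts, it was at least 20.3-fold higher in epithelium. Of the gated classes, mesothelial cells had most Celsr1, 17.7 CPM (4.82 to 45.3) in control and 21.4 CPM (7.84 to 46.5) in cKO. These rest on 4 and 6 UMIs, and the control interval overlapped the epithelial one (6.32 to 9.02). In cKO, lymphoid cells (9.75 CPM, 6.11 to 14.8) lay above epithelial cells (3.06 CPM, 1.40 to 5.81) without overlap. Stromal cells had 0.434 CPM there. Control lymphoid cells were at 4.04 CPM (0.833 to 11.8), which overlapped epithelium. The cell-free profile of control held as much Celsr1 per UMI as the epithelial cells, 8.92 CPM (5.66 to 13.4). Celsr3 had 8 UMIs in all control cells and 15 in all cKO cells, and no ratio is given for it.

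The Frizzled receptors of the set lay on opposite sides. Fzd6 (ENSMUSG00000022297; chromosome 15, 39006034 to 39038188) had 15.5 CPM (13.7 to 17.5) in control epithelial and 1.37 CPM in control stromal cells, 11.4-fold apart (6.24 to 23.0), and 15.3 and 1.10 CPM in cKO, 13.9-fold apart (8.46 to 23.1). Fzd3 (ENSMUSG00000007989; chromosome 14, 65192449 to 65262463) was lower in epithelium, at 6.09 CPM against 28.5 CPM in control stroma, 4.67-fold (3.69 to 5.96). In cKO it was at 13.9 and 25.8 CPM, a 1.85-fold difference (1.35 to 2.61) that no longer reached 2-fold. Scaling by trimmed means of M values, described below, lowered every log2 ratio of this cKO comparison by 0.22. Whether Fzd3 reaches 2-fold in cKO depends on that choice of scale. Control muscle had most Fzd3, 40.9 CPM (27.6 to 58.4), whose interval overlapped that of stroma.

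Vangl2 (ENSMUSG00000026556; chromosome 1, 172000960 to 172028444), a 4-pass membrane protein that recruits Prickle, had 15.8 CPM (13.9 to 17.8) in control epithelium and 4.23 CPM (2.93 to 5.90) in control stroma. That is a 3.73-fold difference (2.60 to 5.50). Its relative Vangl1 (ENSMUSG00000027860; chromosome 3, 102153583 to 102204693) was at 8.0 and 7.58 CPM in the same cells, with a ratio of 1.06 (0.774 to 1.45). The pair changed places in cKO: Vangl1 was 3.02-fold higher in epithelium than in stroma (2.19 to 4.10), and Vangl2 had a ratio of 1.17 (0.662 to 1.95). In control Vangl2 was highest in mesothelial cells (31.0 CPM, 12.5 to 63.8), from 7 UMIs. Its mesothelial and muscle (3.84 to 19.7) intervals overlapped the epithelial one. In cKO Vangl2 was highest in muscle (6.94 CPM, 3.47 to 12.4), which overlapped epithelium too.

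Prickle2 (ENSMUSG00000030020; chromosome 6, 92370908 to 92706155) was the member most tied to mesenchymal cells. It had 402 UMIs in control stroma (49.96 CPM, 45.2 to 55.1), 58 in control muscle (79.0 CPM, 60.02 to 102) and 19 in control epithelium (1.13 CPM, 0.683 to 1.77), under the 9.31 CPM of the cell-free profile. It was 44.0-fold lower in epithelium than in stroma (27.8 to 73.9) in control and 23.3-fold lower (10.7 to 63.7) in cKO. Prickle3 (ENSMUSG00000031145; chromosome X, 7657260 to 7668186) was 2.54-fold higher in control epithelium than stroma (1.52 to 4.46), from 5.67 and 2.24 CPM, and stood at 2.38 and 2.64 CPM in cKO. Prickle3, Vangl1 and Fzd6 overlap Plp2, Gm16160 and Gm26704 on the other strand, and whether the counting used strand is not given in the sources used here.

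Within epithelial-gated cells 5 members differed between the libraries by 2-fold or more, in both directions. Of 8 members with at least 20 UMIs, 2 were at least 2-fold higher in cKO, Vangl1 and Fzd3, where 25.1% of 12568 genes were that much higher, so this count is at the background. Another 3 were at least 2-fold lower, Vangl2, Celsr1 and Prickle3, where 10.5% of genes were. Over all genes the log2 ratio had a median of 0.36, and over the 8 members one of -0.04. Celsr2 and Fzd6, both higher in epithelium than in stroma in each library, had ratios of 0.961 (0.711 to 1.28) and 0.986 (0.702 to 1.36), from sums in which deep cells weigh most. With every cell weighted equally, Celsr2 was at a log2 ratio of -1.01, lower in cKO and past 2-fold. After thinning to 1000 UMIs, 22 of 936 control cells (2.35%, 1.48 to 3.54%) and 0 of 100 cKO cells had a Celsr2 UMI, which allows up to 3%.

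Vangl2 had 264 UMIs in 172 of 943 control cells (15.8 CPM) and 17 in 12 of 100 cKO cells (5.78 CPM, 3.37 to 9.26). It was 2.73-fold lower in cKO (1.67 to 4.75). Vangl1 went the other way, from 134 UMIs in 103 control cells (8.0 CPM, 6.70 to 9.47) to 57 UMIs in 19 cKO cells (19.4 CPM, 14.7 to 25.1), 2.42-fold higher (1.75 to 3.33). The cKO cell with most Vangl1 held 15.8% of its UMIs. The intervals of control and cKO did not overlap for either gene. Fzd3, with 102 and 41 UMIs, was at 6.09 and 13.9 CPM, 2.29-fold higher in cKO (1.55 to 3.32). Celsr1 had 127 and 9 UMIs and was 2.48-fold lower (1.26 to 5.54), and Prickle3 had 95 and 7 UMIs and was 2.38-fold lower (1.11 to 6.08). Prickle2, with 19 and 6 UMIs, had a ratio of 1.80 (0.588 to 4.69), and 4 of its 6 cKO UMIs were in a single cell.

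Several of these values have limits of their own. With cells thinned to 1000 UMIs, 20 of 936 control cells had a Vangl2 UMI (2.14%, 1.31 to 3.28%) and 0 of 100 cKO cells did, which allows up to 3%, so the difference was not detectable in that measure. The Vangl1 shares were 0.427% (0.117 to 1.09%) and 4% (1.10 to 9.93%). The cell-free profile moved with some members: it held Celsr1 at 8.92 CPM in control and 1.75 in cKO, Vangl2 at 3.88 and 1.31, and Fzd3 at 6.21 and 14.04. After it was subtracted at the largest share the markers allowed (2.15% and 4.32%), the log2 ratio was -1.28 for Celsr1, -1.42 for Vangl2 and 1.196 for Fzd3. For Celsr1, taking every Epcam cell whatever its other gates gave 143 and 34 UMIs and a log2 ratio of -0.27 in place of -1.31.

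The same 5 directions were seen in the narrower keratin gate, in which the lymphoid, plasma and lymphatic markers were low and muscle markers differed. That gate kept 53 of the 57 cKO UMIs of Vangl1, 37 of 41 of Fzd3 and 14 of 17 of Vangl2. It also kept all 9 of Celsr1 and 5 of 7 of Prickle3, so these are largely the same counts and not a separate check. The part of the muscle markers was not tested. There Vangl1 was 2.65-fold higher in cKO (1.89 to 3.67) and Fzd3 2.43-fold higher (1.62 to 3.58). Vangl2 was 2.76-fold lower (1.61 to 5.12), Prickle3 2.80-fold (1.16 to 8.83) and Celsr1 2.09-fold (1.06 to 4.67). Depth differed too, and among cells with at least 10000 UMIs, 345 in control and 51 in cKO, Vangl1 was 2.31-fold and Fzd3 2.46-fold higher in cKO, and Vangl2 was 2.33-fold, Celsr1 2.09-fold and Prickle3 2.86-fold lower. These deep cells also held most of the same cKO UMIs: 52 of Vangl1, 37 of Fzd3, 16 of Vangl2, 9 of Celsr1 and 5 of Prickle3. Cells with at least 2000 but under 10000 UMIs, 512 and 42, had at most 4 UMIs of any member in cKO: Vangl1 had a ratio of 2.65 (0.645 to 8.21), Fzd3 1.84 (0.463 to 5.39), Vangl2 0.183 (0.00455 to 1.06) and Prickle3 1.18 (0.133 to 4.92), and all 4 intervals included 1. Ltf UMIs were found in 788 control and 26 cKO cells of the gate. In these Ltf-positive cells Vangl2 was at 15.5 and 3.53 CPM, 4.40-fold lower in cKO (2.10 to 11.1), and Vangl1 at 8.22 and 22.2 CPM, 2.70-fold higher (1.87 to 3.82). A split by 1 UMI of Ltf depends on depth as well, and the Ltf-positive cells of the libraries were not matched for it. The 26 cKO cells held 44 of the 57 cKO Vangl1 UMIs of the gate and 7 of its 17 Vangl2 UMIs. The intervals of Celsr1 (0.226 to 1.09) and Prickle3 (0.145 to 1.11) included 1 there. In cells with no Ltf UMI, 155 and 74, Vangl2 had 13 and 10 UMIs and a ratio of 0.466 whose interval included 1 (0.183 to 1.15). In cycling cells, those with a UMI of Mki67 or Top2a (67 and 24 cells), Vangl2 was 4.13-fold lower (1.66 to 13.2) and Vangl1 2.39-fold higher (1.38 to 4.12), while Fzd3 had a ratio of 1.41 (0.633 to 3.01). In the other cells of the gate, 876 and 76, Vangl2 was 2.28-fold lower (1.28 to 4.48) and Celsr1 2.57-fold lower (1.06 to 8.08). There Vangl1 was 2.10-fold higher (1.33 to 3.21) and Fzd3 2.79-fold higher (1.76 to 4.31), while Prickle3 was under 2-fold, with a ratio of 0.623 (0.222 to 1.42). Control cells with a UMI of Foxa2, a gland marker, numbered 16 and cKO cells 4, too few to compare.

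The scale of the comparison bears on the higher calls. Scaling by trimmed means of M values (TMM) in place of class totals lowered every epithelial log2 ratio by 0.51. Vangl1 was then at 0.77 and Fzd3 at 0.68, both under 2-fold, while Vangl2 was at -1.96, Celsr1 at -1.82 and Prickle3 at -1.76.

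**Figure D2:**
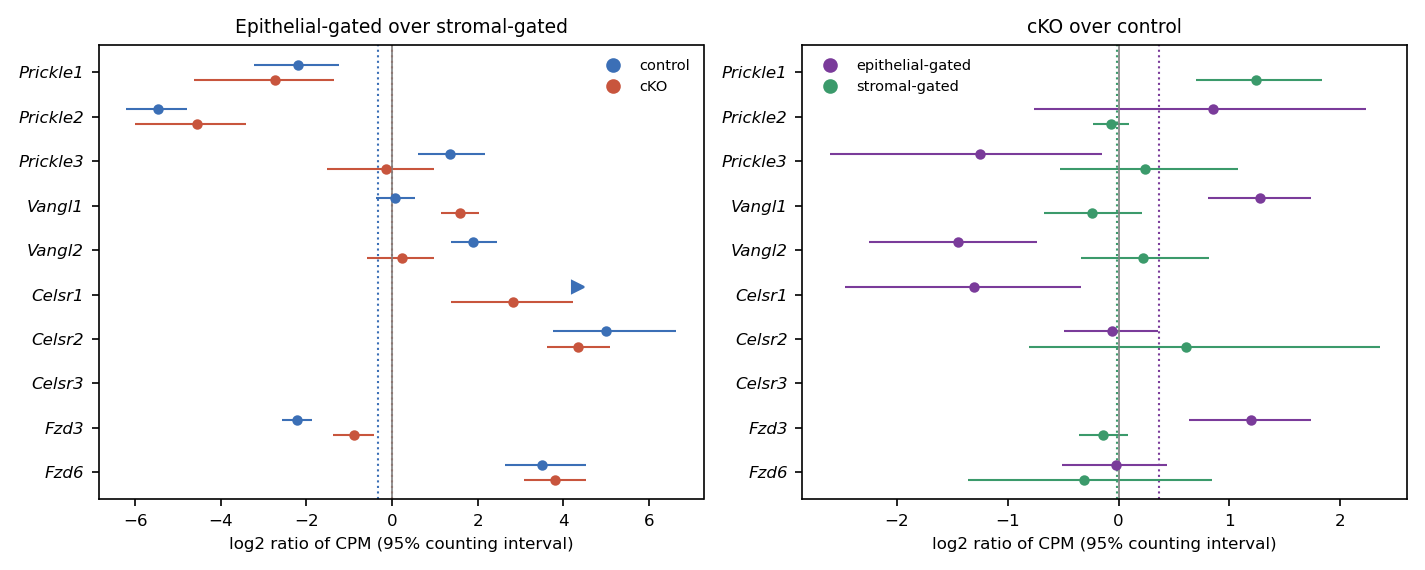
Log2 ratios of CPM on the horizontal axis for each member with at least 20 UMIs in a comparison, with 95% counting intervals: epithelial-gated over stromal-gated cells in each library (left) and cKO over control in epithelial-gated and stromal-gated cells (right). The triangle is a lower bound for Celsr1 and dotted lines are the medians of all genes; on the right Vangl1 and Fzd3 lie past 1 and Vangl2, Celsr1 and Prickle3 past -1 in epithelial cells, and Prickle1 past 1 in stromal cells.

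In stromal cells Prickle1 was the only member of 8 past 2-fold, and it was higher in cKO. At this size 6.13% of 13490 genes were higher and 6.7% lower. It had 31 UMIs in 27 of 620 control cells (3.85 CPM, 2.62 to 5.47) and 231 in 173 of 1462 cKO cells (9.11 CPM, 7.97 to 10.4), a 2.36-fold difference (1.62 to 3.56). These intervals did not overlap. The difference was under 2-fold, a log2 ratio of 0.84, when every cell was weighted equally. After thinning, 2 of 610 control cells (0.328%, 0.0397 to 1.18%) and 12 of 1451 cKO cells (0.827%, 0.428 to 1.44%) had a Prickle1 UMI, and these intervals overlapped. Thinned to 500 UMIs the shares were 0.645% and 0.342%, so no order is read from them. Markers of other cells in the stromal gate differed as well. The 4 lymphatic endothelial markers, all detected in both libraries, summed to 63.6 CPM in control and 16.2 in cKO, the 2 red cell markers to 42.9 and 0.749, and the 7 epithelial markers to 37.3 and 12.3. The 6 lymphoid markers summed to 16.0 CPM in control, with Klrb1c at 0, and 35.5 in cKO. The part of these cells in the result was not tested. The cell-free profile was higher in cKO as well (1.55 and 5.69 CPM). Its part in the stromal difference was not tested beyond a subtraction at the largest share the markers allowed (0.834% and 2.04%), after which the log2 ratio was 1.25 against 1.24.

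The stroma was divided by single genes into overlapping sub-groups. Cells with a UMI of Hsd11b2 numbered 65 in control and 615 in cKO, and had Prickle1 at 3.00 and 10.3 CPM, from 3 and 139 UMIs (3.43-fold, 1.15 to 16.8). Cells without it were at 3.97 and 7.79 CPM. The ratio was 3.72 (1.17 to 19.0) in Scara5 cells, 2.65 (0.835 to 13.5) in Cxcl5 cells, 2.00 (0.903 to 5.22) in Cilp cells and 1.44 (0.527 to 5.52) in Cyp26b1 cells. All 5 control values rest on 7 UMIs or fewer. Other members differed between these groups within control: Prickle2 was at 82.5 CPM in Scara5 cells against 44.3 CPM in the rest (1.86-fold, 1.47 to 2.34), and Vangl2 at 9.99 CPM in Hsd11b2 cells against 3.41 CPM (2.93-fold, 1.25 to 6.36).

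Over the whole stromal class no other member with enough UMIs passed 2-fold. Prickle2 had a cKO to control ratio of 0.954 (0.851 to 1.07) from 402 and 1208 UMIs, and Fzd3 one of 0.908 (0.780 to 1.06) from 229 and 655 UMIs. Vangl1 was at 0.848 (0.628 to 1.16), Vangl2 at 1.17 (0.793 to 1.76), Prickle3 at 1.18 (0.694 to 2.11), Fzd6 at 0.808 (0.390 to 1.80) and Celsr2 at 1.52 (0.570 to 5.11). The intervals of Prickle3, Fzd6 and Celsr2 reach past 2-fold in 1 direction. Within sub-groups some members differed more. Vangl1 in Scara5 cells was at 12.6 CPM in control and 2.85 CPM in cKO, from 15 and 10 UMIs (4.43-fold lower, 1.86 to 11.03). Fzd3 was lower in cKO in Scara5 cells, with a ratio of 0.586 (0.393 to 0.883), and in Cyp26b1 cells, with one of 0.481 (0.304 to 0.789). Fzd6 in Cxcl5 cells had a ratio of 0.156 (0.0324 to 0.658) from 6 and 4 UMIs. These were picked from the sub-groups after their values were seen.

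Muscle cells, 289 in control and 531 in cKO, had 3 members with enough UMIs and none past 2-fold, where 8.48% of 8822 genes were higher and 3.59% lower. Prickle1 was at 12.3 and 13.3 CPM (ratio 1.08, 0.474 to 2.68), Prickle2 at 79.0 and 77.6 CPM (0.982, 0.713 to 1.37) and Fzd3 at 40.9 and 27.1 CPM (0.664, 0.407 to 1.10). Prickle2 in control muscle exceeded control stroma 1.58-fold (1.18 to 2.09), and Prickle1 3.18-fold (1.33 to 6.85). In cKO the ratios were 1.63 (1.34 to 1.96) for Prickle2 and 1.45 (0.884 to 2.28) for Prickle1. These cells were shallow, with medians of 1504 and 1570 UMIs, and also held stromal markers at 1498 and 1830 CPM (6 of 6 in both). Other markers differed between the libraries: red cell markers were at 53.2 and 1178 CPM (2 of 2 in both), epithelial ones at 277 and 27.1 CPM (7 of 7 in both) and lymphoid ones at 53.2 and 262 CPM (2 of 6 and 5 of 6). Lymphatic endothelial markers were at 14.99 CPM in control, with Prox1, Flt4 and Mmrn1 at 0, and at 247 CPM in cKO (4 of 4). Their part in the muscle values, those of the pathway genes included, was not tested.

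In cKO, though not in control, lymphoid cells had the highest Prickle1 level of the 7 classes, with an interval that overlapped the mesothelial one, and it came from cells with Trdc, the constant region of the T cell receptor delta chain. Prickle1 had 4 UMIs in 4 of 155 control cells (5.39 CPM, 1.47 to 13.8) and 70 UMIs in 50 of 424 cKO cells (31.0 CPM, 24.2 to 39.2), a 5.76-fold difference (2.15 to 21.7). At this size 7.83% of 9184 genes were higher and 3.2% lower, and of 2 members with enough UMIs both were higher. Both reached 20 UMIs only through cKO, so nothing is read from this count. Fzd6, with 1 and 18 UMIs, and Prickle3, with 4 and 15, missed it by 1 UMI. The second of the 2 was Celsr1, with 3 and 22 UMIs and a ratio of 2.41 whose interval included 1 (0.725 to 12.6).

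A split by Trdc, chosen after these values were seen, placed all 4 control and all 70 cKO Prickle1 UMIs in Trdc-positive cells. Trdc-positive cells were 73 of 155 lymphoid cells in control (47.1%, 39.0 to 55.3%) and 300 of 424 in cKO (70.8%, 66.2 to 75.0%). Within them Prickle1 was at 12.3 CPM (3.35 to 31.5) and 46.0 CPM (35.9 to 58.1), 3.74-fold apart (1.40 to 14.1). Trdc-negative lymphoid cells, 82 and 124, had 0 UMIs in both libraries, and so did the 19 and 37 cells with Ncr1, a natural killer cell receptor. After thinning, 1 of 72 control (1.39%, 0.0352 to 7.50%) and 15 of 300 cKO Trdc-positive cells (5%, 2.83 to 8.11%) had a Prickle1 UMI, and these intervals overlapped. In Trdc-negative cells it was 0 of 81 and 0 of 121, which allows up to 3.70% and 2.48%.

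The cKO level in Trdc-positive cells was above the 5.69 CPM of the cell-free profile, and that of Trdc-negative cells was 0. Fzd6 followed the same split in cKO, with 18 UMIs in Trdc-positive cells (11.8 CPM, 7.01 to 18.7) and 0 in the others, from 1 and 0 in control. Celsr1 did not: it was at 6.57 CPM in Trdc-positive and 16.3 CPM in Trdc-negative cKO cells. Vangl2 and Fzd3 had 0 UMIs in lymphoid cells of both libraries. The cKO lymphoid profile also held B or plasma markers at 490 CPM (3 of 3), mainly Jchain, against 1.35 CPM in control (Ms4a1 and Jchain at 0), and their part in the difference was not tested.

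Fzd6 had its highest level per UMI in lymphatic endothelial cells, though in control the epithelial gate held more of its UMIs (260 against 32). They were taken as cells of no gate with a UMI of Prox1, the factor that defines lymphatic endothelium: 19 in control and 48 in cKO. Fzd6 was at 88.5 CPM (60.5 to 125) in control and 139 CPM (118 to 164) in cKO, a ratio of 1.58 (1.07 to 2.39). A single cKO cell held 24 of its 149 UMIs. In control that was 5.70-fold above epithelial (3.82 to 8.25) and 64.7-fold above stromal cells (31.8 to 142). Celsr1 had 22.1 and 17.8 CPM there, Prickle1 19.4 and 15.9, and Vangl1 13.8 and 14.97, with overlapping intervals between libraries for each; the control values rest on 8, 7 and 5 UMIs. Prickle1 in these control cells was 5.02-fold above stroma (1.87 to 11.6), from 7 UMIs.

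**Figure D3:**
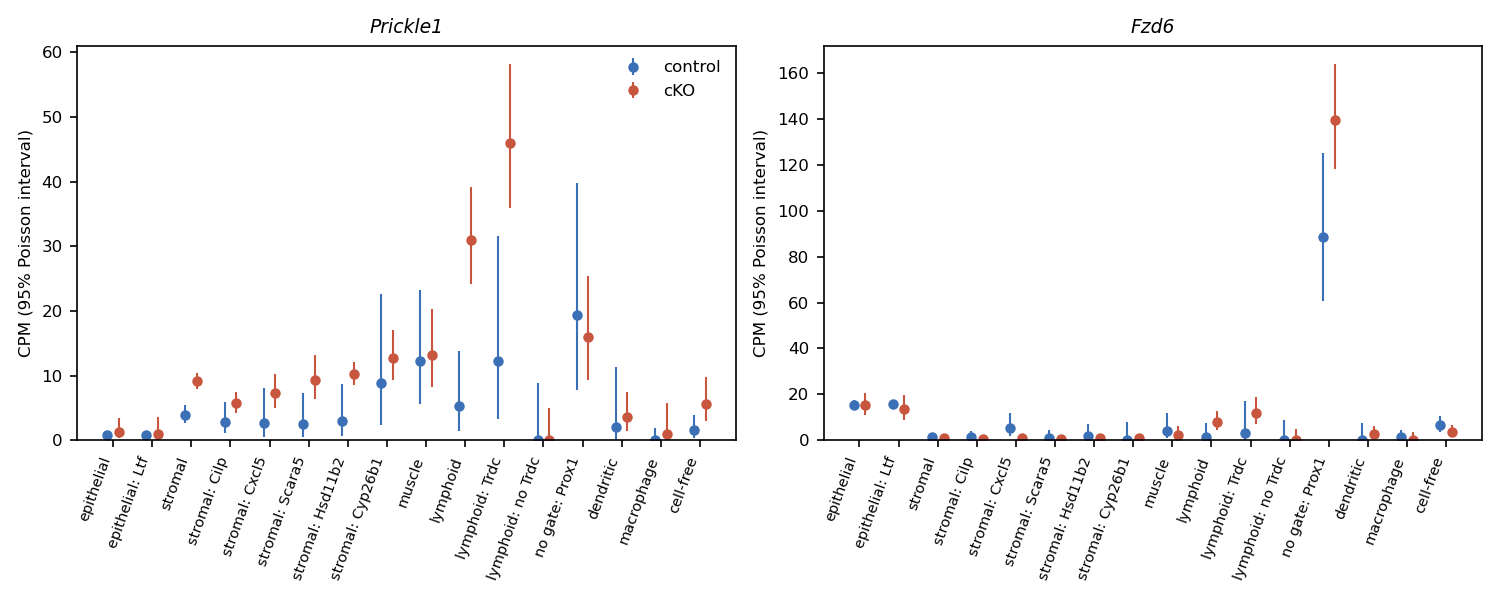
Prickle1 (left) and Fzd6 (right) in CPM, with exact Poisson 95% intervals, across classes and the sub-groups defined by 1 further gene, control in blue and cKO in red. Prickle1 is highest in cKO Trdc-positive lymphoid cells at 46.0 CPM, and Fzd6 in Prox1-positive cells at 88.5 and 139 CPM.

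Macrophages had little of any member. The 10 genes summed to 4 UMIs over 228 macrophages of control and 8 over 109 of cKO. In dendritic cells Prickle3 had 4 UMIs in control (8.17 CPM, 2.23 to 20.9) and 27 in cKO (14.04 CPM, 9.25 to 20.4, in 21 of 133 cells), the highest of its classes in each library, with intervals that overlapped the next class in both and a ratio of 1.72 (0.599 to 6.76). After thinning to 1000 UMIs, from medians of 11407 and 13988, 1 of 41 control cells and 0 of 133 cKO cells had a Prickle3 UMI. Markers of other cells differed between the dendritic gates of control and cKO. Lymphoid ones were at 0 and 365 CPM, red cell ones at 4.09 and 490, stromal ones at 28.6 and 272 and lymphatic endothelial ones at 0 and 104. Macrophage markers went the other way, at 73.6 and 23.9 CPM. The part of these cells in the Prickle3 level was not tested. Mesothelial cells, 25 and 31, had 8 of the members at 1 UMI or more in both libraries, from at most 11 UMIs each, so that their levels are loosely fixed.

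Within single cells the members were sparse. Of 943 control epithelial cells 489 had no UMI of any member, 221 had 1 member and 233 had several, up to 7 in a cell. In cKO the numbers were 47, 19 and 34 of 100. For stroma they were 296, 197 and 127 of 620 in control and 570, 496 and 396 of 1462 in cKO. Macrophages had none with more than 1 member.

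The genes most alike in pattern were found by Pearson's r of log2(CPM + 1) over 14 profiles, 7 classes in 2 libraries, among 11442 genes with at least 200 UMIs. These points share libraries and depths, and r is a description. Prickle2 was most like Npr2 (0.979), Tafa5 (0.976) and Dclk1 (0.974), and Fzd3 most like Sox4 (0.979), Dlc1 (0.976) and Dctd (0.974). Celsr2 was nearest to Xk (0.948), Tmem170 (0.947) and Perp (0.941), and Fzd6 to Mycn (0.954), Pigp (0.926) and Eef2k (0.919). For Celsr1 the genes were Brwd3 (0.961), Dmxl1 (0.961) and Rdm1 (0.9495). Prickle1 was nearest to Zbtb44 (0.935), Hnrnpr (0.928) and Acadsb (0.926). Vangl1 paired with Gstm2 (0.940), Arhgap44 (0.937) and Thsd4 (0.934), and Vangl2 with Mid2 (0.937), Coq10b (0.921) and Adamts9 (0.915). Prickle3 had the lowest values, with 8030456M14Rik (0.855), Rnf123 (0.843) and Foxk1 (0.839).

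The wider pathway was read from 36 further genes of planar cell polarity, a list chosen with earlier results known. In epithelial cells 7 of 27 with enough UMIs were at least 2-fold higher in cKO, near the 25.1% of all genes, and 1 was lower, where 10.5% of all genes were, with a median log2 ratio of 0.17. Among ligands and co-receptors 3 of 6 were higher and 1 lower. Ankrd6, which encodes the vertebrate relative of fly Diego, was the furthest up, from 2.09 to 10.5 CPM (5.05-fold, 3.01 to 8.43). Fzd7, a Frizzled receptor, was the furthest down, from 12.2 to 4.08 CPM (3.00-fold lower, 1.68 to 5.90). The effectors, such as Rhoa, Rac1, Rock1 and Daam1, had 0 of 8 past 2-fold. The epithelial values of pathway genes, here and below, are of the wider gate, in which 33 of 100 cKO cells had no further epithelial marker. No value of a single pathway gene is given for the keratin gate, and those of Ankrd6 rest on 35 and 31 UMIs.

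Stromal cells had 2 of 35 pathway genes higher and 3 lower, with a median log2 ratio of -0.04. Both shares were near those of all genes, 6.13% and 6.7%. Wnt5a, the ligand best known for this pathway, was furthest up, from 215 UMIs (26.7 CPM) to 1841 UMIs (72.6 CPM), a 2.72-fold difference (2.36 to 3.14). Wnt5b, a related ligand, was the other, and Ankrd6 was furthest down, from 1.37 to 0.473 CPM (2.89-fold lower, 1.15 to 7.15), beside Fuz and Fjx1. Fjx1, related to the Golgi kinase that acts on Fat and Dachsous, had the most UMIs of the lower genes, 680 and 958, and was at 84.5 and 37.8 CPM. It was singled out after its values were seen. With TMM scaling the stromal log2 ratio of Fuz was -0.99, under 2-fold, and that of Invs 1.05, past it. In epithelial cells Fjx1 was higher in cKO, at 2.51 and 10.9 CPM.

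Muscle cells had 2 of 23 pathway genes higher and 2 lower, beside 8.48% and 3.59% of all genes. Wnt5a was again furthest up, from 12.3 to 36.0 CPM (2.93-fold, 1.44 to 6.74), on 9 and 57 UMIs, and Gpc4, a glypican, furthest down, from 21.8 to 10.1 CPM (2.16-fold lower, 1.01 to 4.61). In lymphoid cells 0 of 17 were past 2-fold, beside 7.83% of all genes higher and 3.2% lower. The furthest up was Dvl1, a Dishevelled gene, with a ratio of 1.94 (0.947 to 4.47), and the furthest down Invs at 0.601 (0.375 to 0.981). Wnt5a in epithelial cells was at 13.1 and 32.996 CPM, a ratio of 2.51 (1.96 to 3.20). With TMM scaling its epithelial log2 ratio was 0.82, under 2-fold, as were those of Ptk7 (0.76) and Invs (0.60), while Dvl1 passed it at -1.42. In mesothelial cells Wnt5a was at 159 and 210.2 CPM, a ratio of 1.32 (0.857 to 2.06).

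**Figure D4:**
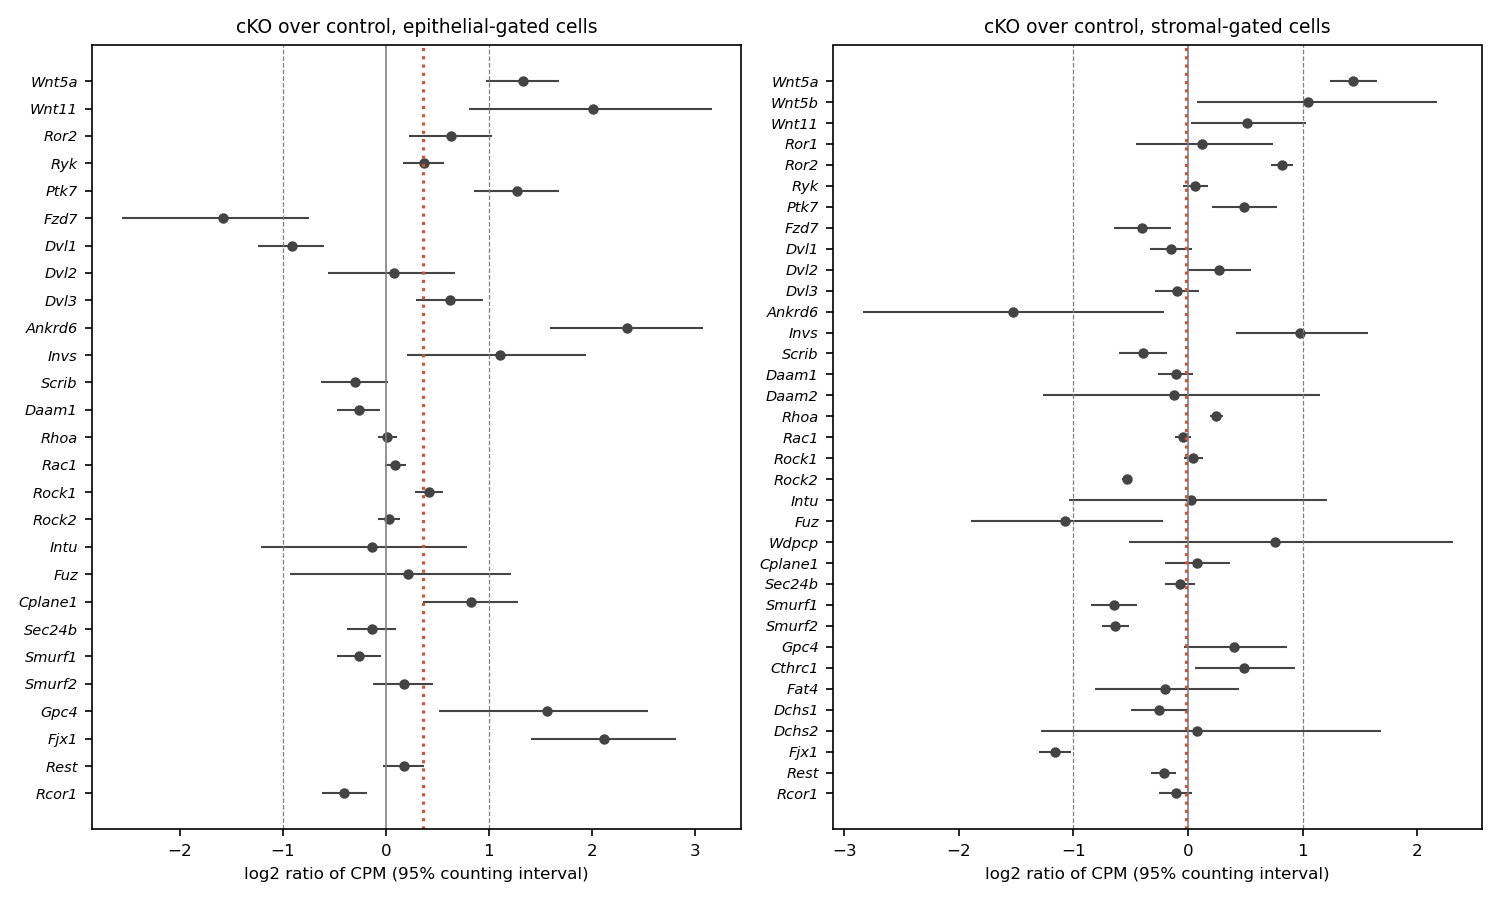
Log2 ratios of cKO to control CPM on the horizontal axis, with 95% counting intervals, for the further planar cell polarity genes with at least 20 UMIs in epithelial-gated (left) and stromal-gated (right) cells; dashed lines mark 2-fold and the dotted line the median of all genes. Ankrd6 lies at 2.34 and Fzd7 at -1.58 in epithelial cells, and Wnt5a at 1.44 in stromal cells.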

How the data were processed

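The values deposited by the authors were raw UMI counts per gene and barcode in unfiltered matrices. Per the file headers the software was Cell Ranger 4, and the submitters' processing notes name Cell Ranger 6.1.1 and mm10. UMI counts were summed per gated class and library and scaled to CPM with Python 3.11.15, NumPy 2.4.6 and SciPy 1.17.1. CPM values have exact Poisson, ratios exact conditional binomial and shares Clopper-Pearson 95% intervals. For a share of 0 the limit given is 3 counts over the number of cells. It lies somewhat under the Clopper-Pearson limit, at 0.321% against 0.393% for 0 of 936 cells. A sum of 0 was set to 3 counts for a bound. A gene was called at a ratio of at least 2 or at most 0.5 with at least 20 UMIs in both profiles together. The ratio and interval code was tested on simulated data. Doublets were scored with simulated doublets and removed only in an alternative, since gates already drop cells with markers of several classes. Of the feature identifiers 32158 (99.61%) matched the GRCm38 annotation used for coordinates.

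Named were all members, the pathway gene furthest in each direction per class, and the 3 genes most alike to each member with at least 100 UMIs. Others, such as those in counts of 5 or fewer, were named after their values were seen. The members and lists were chosen with earlier results of these data known. Alternatives covered cell filters, gates, cell weighting, thinning, TMM scaling, cell-free RNA, doublets and leaving out the top cell.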

Additional observations from a re-analysis of the deposited data

How the results depend on the processing

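Each result was recomputed under each alternative that applies to it. Of these values 670 stayed within their interval or within 1.5 times their count, 79 moved and 1 reversed. The intervals of members with few UMIs are wide, so staying within them is a weak check. Thinning to 1000 UMIs moved most, since few UMIs remain: the number of members past 2-fold became 0 in epithelial, 0 in stromal and 0 in lymphoid cells for cKO over control, 4 for epithelium over stroma in control and 1 in cKO. A member counts only with at least 20 UMIs, so a lost call need not mean a smaller difference. Thinned shares of epithelial Vangl1 were 0.427% in control and 4% in cKO. Those of Prickle1 were 0.328% and 0.827% in stromal and 0.654% and 3.56% in lymphoid cells, with overlapping intervals. Epithelial Vangl2, Celsr1 and Prickle3 had 0 cKO cells with a UMI. Pathway genes past 2-fold then numbered 2 in epithelial, 3 in stromal and 1 in muscle cells. The log2 ratio of Prickle1 was 1.59 in muscle, from 2 and 11 UMIs, and its epithelial to stromal log2 ratio in cKO reversed to 0.27, from 1 epithelial UMI. Thinning left 9 ratios without a value. TMM scaling, which shifted the epithelial log2 ratios by 0.51, left 3 members past 2-fold in epithelial cells. With cells gated whatever their other gates, 1 member passed in muscle and 6 pathway genes in lymphoid cells, and the epithelial log2 ratio of Celsr1 was -0.27 in place of -1.31. A gate of 2 UMIs left 1 member in lymphoid cells. Lymphoid pathway genes past 2-fold, 0 as reported, were 1 with cells averaged, 1 with cell-free RNA subtracted and 2 without the top cell. With cells averaged, Celsr2 in epithelial cells was at -1.01. The keratin gate, added after the data were seen and holding most of the same UMIs, moved no result. The cause of these moves was not tested. No paired analysis was possible because each group was 1 library. Leaving out a replicate was not possible for the same reason.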
